A study of Mus musculus with 14 samples.

Results

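Ly6a, Ly6c1, Ly6c2, Ly6e and Ly6i are neighbouring genes of the Ly6 family on mouse chromosome 15. A region of the ATAC-seq count table was counted with any of these 5 genes when it lay on chromosome 15 and its midpoint had that gene's start as the nearest protein-coding start, or lay within the gene's body. The rule found 16 of the 67254 regions in the table, out of 2760 on chromosome 15. Of these, 11 belonged to Ly6e, 3 to Ly6i and 2 to Ly6c2, and none belonged to Ly6a or Ly6c1. All 16 passed the filter on low counts, which kept 61366 regions for testing.

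ATAC-seq uses a transposase that cuts DNA where chromatin is open, so the count in a region measures its accessibility. The cells were splenic central Tregs (cTregs) and effector Tregs (eTregs), sorted as CD45.2+ CD4+Foxp3-YFP+ cells from bone marrow chimeras. Surface markers that include CD44 separated them. The paper gives CD44 as low on cTregs and high on eTregs, and the labels give it as negative and positive. In these chimeras, sublethally irradiated Rag1-/- hosts, which have no mature T or B cells of their own, received CD45.2+ marrow mixed 1:1 with CD45.1+ wild-type marrow. The mice were analysed after 6 to 8 weeks of reconstitution. Control cells (n = 3 cTreg and n = 3 eTreg libraries) were Foxp3Cre Atg14+/fl, and Atg14-deficient cells (n = 4 and n = 4) were Foxp3Cre Atg14 fl/fl. The controls therefore also carried the Foxp3-driven Cre and 1 floxed allele. This Cre directs deletion to cells that have expressed Foxp3. The paper states that some of its Foxp3Cre Atg14 fl/fl mice also carried an Atg14+/- or Atg14-/- allele, without notable difference in the reported phenotypes. Whether the marrow donors here did is not stated. Atg14 encodes a subunit of the Vps34 lipid kinase complex that starts autophagosome formation.

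Total counts were between 2242983 and 5548189 per library. Of the values at the member regions, 82.1% were even numbers, and whether both ends of a fragment were counted was not tested. In bulk libraries, a change in the share of cells with an open region and a change in its accessibility per cell cannot be told apart. Promoter regions (midpoint within 1000 bp of a start) were found for 4 of 6 Treg genes, and the regions nearest to the other 2 starts, 3650 bp from Foxp3 and 2862 bp from Cd4, held at least 7.53 and 16.1 CPM (counts scaled to a common library total) in every library. No promoter region was found for any of 5 B cell or 3 neutrophil genes, while 1 of 2 CD8 genes (Cd8b1) and 2 of 3 NK cell genes (all but Ncr1) had one. The region at the Atg14 start was present in both genotypes (16.8 to 35.2 CPM) and, being at the promoter, does not check the deletion.

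Ly6 proteins are small and mostly anchored to the outer membrane by a glycolipid. Ly6a encodes Sca-1, known as a marker of blood stem cells and induced on activated T cells, and Ly6c1 and Ly6c2 encode the Ly6C antigen of monocytes and of some T cells. Ly6e is broadly expressed and restricts the entry of some viruses. Several family members, Ly6a, Ly6c and Ly6e among them, are known to be induced by interferons, which act through STAT and IRF factors at the GAS and ISRE motifs.

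The sequences given first are those of the 6 regions on which the results turn or which held the interferon-type motifs. Each is the 300-bp window around the region's midpoint (GRCm38, + strand, read from the RefSeq assembly), and capitals mark matches to the motifs searched. The first 2 lay upstream of Ly6e and had the largest differences between Atg14-deficient and control eTregs, at chr15:74934201-74934500 and chr15:74935254-74935553.
Ly6e, 20674 bp upstream: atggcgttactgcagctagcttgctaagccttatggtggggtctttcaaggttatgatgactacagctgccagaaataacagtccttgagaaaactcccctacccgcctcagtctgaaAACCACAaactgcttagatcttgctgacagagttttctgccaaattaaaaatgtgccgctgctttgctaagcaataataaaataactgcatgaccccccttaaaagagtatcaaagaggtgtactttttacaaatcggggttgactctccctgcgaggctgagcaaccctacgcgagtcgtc
Ly6e, 19621 bp upstream: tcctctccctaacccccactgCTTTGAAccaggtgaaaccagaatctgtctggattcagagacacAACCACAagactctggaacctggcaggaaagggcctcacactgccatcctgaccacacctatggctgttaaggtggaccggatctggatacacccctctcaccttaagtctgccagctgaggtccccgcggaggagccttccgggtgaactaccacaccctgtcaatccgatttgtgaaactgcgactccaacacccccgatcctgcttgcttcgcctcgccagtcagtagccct
The next 2, at chr15:74925917-74926216 and chr15:74962637-74962936, had the largest differences between eTregs and cTregs, in opposite directions.
Ly6e, 28959 bp upstream: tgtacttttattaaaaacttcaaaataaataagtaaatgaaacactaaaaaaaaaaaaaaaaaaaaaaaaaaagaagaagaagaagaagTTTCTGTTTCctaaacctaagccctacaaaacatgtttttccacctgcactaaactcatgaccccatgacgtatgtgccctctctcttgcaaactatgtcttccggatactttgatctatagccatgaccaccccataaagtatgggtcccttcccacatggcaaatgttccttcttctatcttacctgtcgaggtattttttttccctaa
Ly6e, 7065 bp downstream: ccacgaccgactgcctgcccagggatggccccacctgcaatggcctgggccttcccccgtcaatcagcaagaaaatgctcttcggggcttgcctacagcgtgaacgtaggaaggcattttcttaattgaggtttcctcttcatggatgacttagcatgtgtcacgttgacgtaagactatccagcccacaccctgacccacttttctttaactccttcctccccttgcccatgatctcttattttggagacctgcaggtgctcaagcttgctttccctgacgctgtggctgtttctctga
The fifth, at chr15:74989376-74989675, held the most motif matches, and the sixth, at chr15:75116586-75116885, had the highest mean CPM of all 16.
Ly6i, 6092 bp upstream: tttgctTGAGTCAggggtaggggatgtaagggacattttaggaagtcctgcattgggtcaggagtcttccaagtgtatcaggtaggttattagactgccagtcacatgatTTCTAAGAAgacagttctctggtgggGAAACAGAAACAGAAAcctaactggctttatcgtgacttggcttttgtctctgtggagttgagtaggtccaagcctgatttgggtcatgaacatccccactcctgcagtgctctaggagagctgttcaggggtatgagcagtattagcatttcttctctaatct
Ly6c2, 4669 bp upstream: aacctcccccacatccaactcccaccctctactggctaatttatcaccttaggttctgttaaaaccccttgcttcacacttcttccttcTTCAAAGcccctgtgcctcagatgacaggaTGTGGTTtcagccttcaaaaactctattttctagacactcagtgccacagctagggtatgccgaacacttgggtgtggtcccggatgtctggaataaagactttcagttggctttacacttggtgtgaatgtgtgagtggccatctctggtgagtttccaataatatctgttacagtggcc

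Of the 16 member windows, 2 held an ISRE core (a pair of GAAA blocks set 2 bases apart), against 6.3% of 67207 windows of the same length at all regions. One of these was the region 28959 bp upstream of Ly6e, where the match began at base 90, next to a purine-rich repeat. The other, upstream of Ly6i, held a pair of ISRE matches that overlap (from bases 137 and 143), a STAT match (TTCNNNGAA, 1 of 16 members, 9.22% of all windows) and an AP-1 match (TGANTCA, 2 of 16, 14.7%). RUNX matches (TGTGGTT) were in 4 of 16 windows (12.9% of all), which included both regions that differed most by genotype in eTregs and the Ly6c2 region. TCF/LEF matches (TTCAAAG) were in 2 of 16 (7.57%) and ETS matches (CAGGAAG) in 2 (22.7%). The letters AGATAA of the GATA factors were in 2 of the windows (13.4%), and a FOXO match (TGTTTAC) was in none (4.52%). Both strands were searched, and a match describes the letters in these windows only.

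The first measurement concerned where the locus had regions at all. The 11 Ly6e regions reached from 36351 bp upstream of its start to 12667 bp downstream, and only 1 of them, chr15:74955175-74955964, lay within a member's gene body (chr15:74955025-74959904 on the + strand). Its midpoint was 152 bp from the nearer of the 2 annotated Ly6e starts. The 3 Ly6i regions lay 8001 bp downstream and 5332 and 6092 bp upstream of the start of Ly6i (gene body chr15:74979534-74983434, - strand), and the 2 Ly6c2 regions lay 4669 and 5630 bp upstream of Ly6c2 (chr15:75108161-75112066, - strand).

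Between the last Ly6i region and the first Ly6c2 region, the table held no region over 126834 bp (chr15:74989713-75116546), a stretch that spans the bodies of Ly6a (chr15:74994877-74998031), Ly6c1 (chr15:75044018-75048920) and Ly6c2, all on the - strand. The nearest region midpoint was 8505 bp from the Ly6a start and 59137 bp from the nearest Ly6c1 start. Gaps of at least this length made up 4.06% of the 67186 gaps between neighbouring regions, and the median gap was 9522 bp. A region within 1000 bp of the start was found for 56.8% of 21774 protein-coding genes, so the lack of one at Ly6a, Ly6c1, Ly6c2 and Ly6i is shared with many genes.

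The reference within this stretch was repetitive. Of all 50-base strings in it, 63.3% occurred once in the genome, and of all 100-base strings 84.2%. Within 500 bp of the start, the share of 100-base strings that occurred once was 61.0% at both Ly6a and Ly6c1 and 68.1% at Ly6c2, against 100% at Ly6e and Ly6i. All 16 member regions were at 100% for 100-base strings. With 50-base strings the lowest was the Ly6c2 region 5630 bp upstream (67.8%), followed by the region 20674 bp upstream of Ly6e (88.4%). Whether reads that map to several places affected the count of regions here was not tested.

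**Figure D1:**
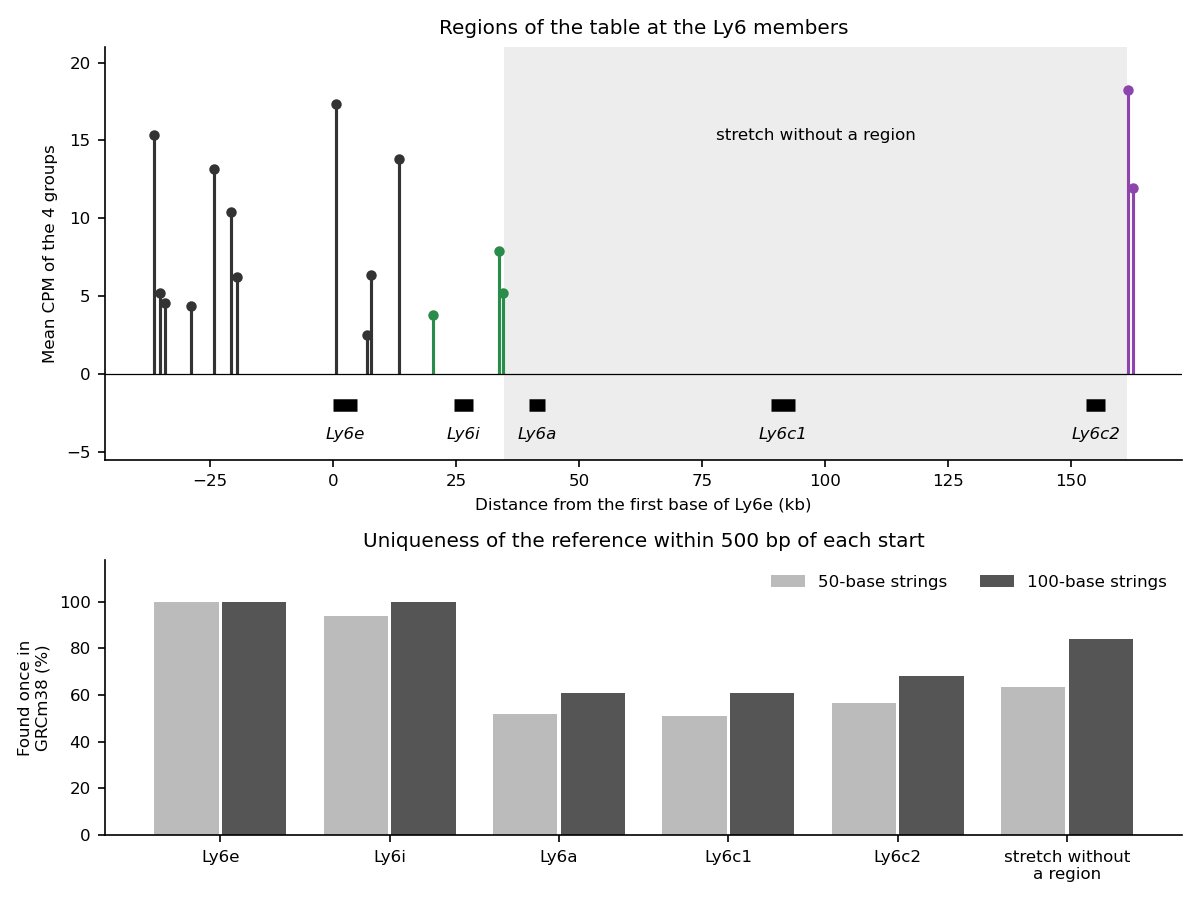
Top, mean CPM of the 4 groups (vertical axis) at the 16 member regions by distance from the first base of Ly6e in kb, with gene bodies as black bars and the 126834-bp stretch without a region shaded. Bottom, percent of 50-base and 100-base strings within 500 bp of each gene start, and in the stretch, that occur once in GRCm38. Ly6a, Ly6c1 and Ly6c2 lie inside the shaded stretch, and their starts have the lowest bars.

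The likeness of the Ly6c genes can be read from their promoters. RefSeq promoter sequences (GRCm38.p6, 250 bases before to 50 after a start) were matched for 2 of the 5 genes, Ly6c1 and Ly6c2, and are shown for the pair of starts with the most identical bases, at chr15:75048788-75049087 and chr15:75111922-75112221 (- strand), with the longest shared run of 20 bases in capitals.
Ly6c1 promoter: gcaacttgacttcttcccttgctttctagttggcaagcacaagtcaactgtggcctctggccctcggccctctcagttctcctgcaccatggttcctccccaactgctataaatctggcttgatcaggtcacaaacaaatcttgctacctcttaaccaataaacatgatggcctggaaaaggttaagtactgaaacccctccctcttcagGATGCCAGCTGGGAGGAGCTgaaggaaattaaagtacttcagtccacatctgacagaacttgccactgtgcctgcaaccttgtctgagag
Ly6c2 promoter: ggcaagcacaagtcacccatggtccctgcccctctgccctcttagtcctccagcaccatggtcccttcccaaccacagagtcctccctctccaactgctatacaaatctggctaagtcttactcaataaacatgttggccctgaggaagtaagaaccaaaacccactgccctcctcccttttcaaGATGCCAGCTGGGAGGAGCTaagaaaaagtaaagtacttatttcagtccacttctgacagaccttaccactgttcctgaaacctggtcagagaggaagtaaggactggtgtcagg
They were identical at 212 of 283 aligned positions (74.9%), and for another pair of annotated starts at 157 of 188 (83.5%) with a shared run of 37 bases. The Ly6c2 promoter held 1 motif of those searched, RUNX, and the Ly6c1 promoter held none. No accessibility value can be given for either promoter, since no region of the table covers them.

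The member regions lay on both sides of the median accessibility of all tested regions. Their mean CPM over the 4 groups ran from 2.48 to 18.2, against a median of 6.66 over all tested regions, and single counts ran from 4 to 140. The highest was the Ly6c2 region 4669 bp upstream (18.2 CPM, above 77.8% of tested regions), followed by the Ly6e promoter region (17.3), the region 36351 bp upstream of Ly6e (15.3), the region 12667 bp downstream of it (13.8) and that 24195 bp upstream (13.2). The lowest was the region 6239 bp downstream of Ly6e (2.48 CPM, above 12.2%). Among these 5 leading regions, neighbours in the order had overlapping ranges in every group, except the regions 36351 bp upstream and 12667 bp downstream of Ly6e in control cTregs (15.2 to 17.4 against 10.8 to 14.3 CPM). The order is a description and takes no account of width. Per kb of region, the Ly6c2 region was still the highest of these 5 (48.3 CPM). The Ly6e promoter region (790 bp wide) had 21.9 CPM per kb, and that 24195 bp upstream (881 bp wide) had 14.9. The regions 36351 bp upstream and 12667 bp downstream of Ly6e had 34.1 and 35.6.

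The main question of the design was whether loss of Atg14 changed accessibility. In eTregs, 3 of the 16 member regions passed an unadjusted p of 0.05 with a log2 fold change beyond 0.5 (edgeR's quasi-likelihood test), all higher in Atg14-deficient cells, and all 3 lay upstream of Ly6e between 19621 and 24195 bp from its start. Over all tested regions 6.36% passed this threshold and 4.59% passed it upward. None of the 16 passed after Benjamini-Hochberg adjustment over all regions (0.0228% of all regions did), and none did with DESeq2, which called 2 of the 3 at the unadjusted threshold.

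At the region 20674 bp upstream of Ly6e (chr15:74934163-74934539), control eTregs had 5.86, 9.97 and 6.49 CPM and Atg14-deficient eTregs had 12.0, 10.0, 15.9 and 20.03 CPM. All 4 deficient libraries were above all 3 controls, although by a small margin between the closest of them. Of the 16 members, 1 had eTreg groups that did not overlap, against 8.48% of all regions. It differed by 0.97 on the log2 scale (SE 0.34), with an unadjusted p of 0.0072 and an edgeR adjusted p of 0.457. The exact permutation test of log2 CPM gave a two-sided p of 0.0571, the smallest that 4 against 3 libraries allow. In cTregs the same region had 11.7, 12.4 and 4.46 CPM in controls and 13.4, 9.34, 10.5 and 7.71 CPM in Atg14-deficient cells, with a log2 fold change of 0.05 (SE 0.34).

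Nearby, at the region 19621 bp upstream (chr15:74935273-74935535), control eTregs had 3.90, 4.20 and 5.77 CPM and deficient eTregs 12.6, 4.18, 8.21 and 10.3 CPM. Deficient replicate 2 lay among the controls and the other 3 lay above them. The log2 fold change was 0.92 (SE 0.42, unadjusted p = 0.0344, edgeR adjusted p = 0.587), and the exact permutation p was 0.143. At the region 24195 bp upstream (chr15:74930390-74931270), control eTregs had 11.7, 10.8 and 12.3 CPM and deficient eTregs 27.3, 12.1, 14.3 and 19.8 CPM. Again deficient replicate 2 lay within the control range. This gave a log2 fold change of 0.67 (SE 0.33, unadjusted p = 0.0497, edgeR adjusted p = 0.627), with an exact permutation p of 0.143. It missed the unadjusted threshold with TMM (0.61, unadjusted p = 0.0632), DESeq2 size factors (unadjusted p = 0.0582), loess offsets (unadjusted p = 0.0584) and DESeq2 (unadjusted p = 0.0648), so that 2 regions were counted under each of these.

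The midpoints of all 3 regions fall inside the annotated long non-coding RNA gene Gm39556 (chr15:74926484-74935442), and the region 19621 bp upstream of Ly6e reaches past its end. The midpoint of the region 24195 bp upstream of Ly6e was 87 bp from a Gm39556 start, and the other 2 lay 3178 and 4231 bp from one. With the nearest start of any annotated gene as the rule, only 4 of the 16 regions stayed with the 5 members, and the 3 regions went to Gm39556. Summed over the 3 regions, control eTregs had 23.6 ± 1.89 CPM (SD, n = 3) and deficient eTregs 41.7 ± 11.8 CPM (SD, n = 4), and the cTreg groups had 23.8 ± 12.2 and 30.3 ± 4.40 CPM.

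The count of 3 depended on single libraries. It was 5 without Atg14-deficient eTreg replicate 2 and 1 without control eTreg replicate 1 or without deficient replicate 4. The region 20674 bp upstream passed the unadjusted threshold in all 7 of these fits, with log2 fold changes from 0.77 to 1.23. That 19621 bp upstream kept its call in 3 of the 7 (0.71 to 1.13 over all 7), without control replicate 3 or deficient replicate 2 or 3. The region 24195 bp upstream kept it in 2 (0.42 to 0.81), without deficient replicate 2 or 3.

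The Ly6e promoter region had 10.4, 16.3 and 16.9 CPM in control eTregs and 16.2, 17.6, 23.3 and 24.7 CPM in deficient eTregs. In cTregs the values were 18.8, 12.2 and 12.9 CPM in controls and 15.1, 19.5, 22.1 and 21.8 CPM in deficient cells. In both states the higher libraries were deficient ones, and the groups overlapped. Between genotypes its log2 fold change was 0.48 (SE 0.25, unadjusted p = 0.0647) in eTregs and 0.42 (SE 0.26, unadjusted p = 0.113) in cTregs.

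In cTregs, none of the 16 regions passed the unadjusted threshold with edgeR or DESeq2, where 3.34% of all regions did with edgeR, and none passed after adjustment (0.0163%). No member had cTreg groups that did not overlap between genotypes, as 5.51% of all regions had. The region with the largest log2 fold change was that 7065 bp downstream of Ly6e, at 0.97 (SE 0.48, unadjusted p = 0.0538). Its values in control cTregs were 4.89, 1.44 and 1.78 CPM, and in deficient cTregs 2.52, 5.45, 4.73 and 8.99 CPM. Deficient replicates 1 and 3 lay within the control range. The number of members past the threshold was 2 without control cTreg replicate 1 or deficient cTreg replicate 2, and 1 without control replicate 2 or deficient replicate 1.

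Although few regions passed a threshold, the fold changes of the members lay mostly above 0. In cTregs all 16 were above 0 with a median log2 fold change of 0.33, while over all tested regions 53.5% were above 0 with a median of 0.03. In eTregs 14 of 16 were above 0 with a median of 0.42, against 56.2% and 0.06. Other lists also had medians above 0. For 80 regions at 6 Treg genes they were 0.19 in cTregs and 0.27 in eTregs. Of these 80, 11 were higher and 0 lower in deficient eTregs at the unadjusted threshold, and 4 were higher and 2 lower in deficient cTregs. For 5 regions at 2 CD8 genes the medians were 0.48 and 0.49, with 1 of the 5 higher in each at that threshold. Over all regions 4.59% were higher in eTregs, and 3.34% passed in either direction in cTregs. For 25 regions at NK cell genes the medians were 0.03 in both, and for 8 regions at B cell genes 0.35 in cTregs and -0.13 in eTregs. The cells were sorted on CD4 and Foxp3-YFP. The purity of the sort and the part of CD8, NK and B cells in the Ly6 shift were not tested. The exceptions in eTregs were the regions 35244 bp upstream (log2 fold change -0.10) and 6239 bp downstream of Ly6e (-0.31), both within their standard errors of 0. Neighbouring regions of the same libraries are not independent, so these counts carry no test. With 1 library left out, between 13 and 16 of the members stayed above 0 in cTregs (13 without control replicate 3 or deficient replicate 1) and 13 or 14 in eTregs, with medians of 0.22 to 0.43 and 0.23 to 0.56.

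**Figure D2:**
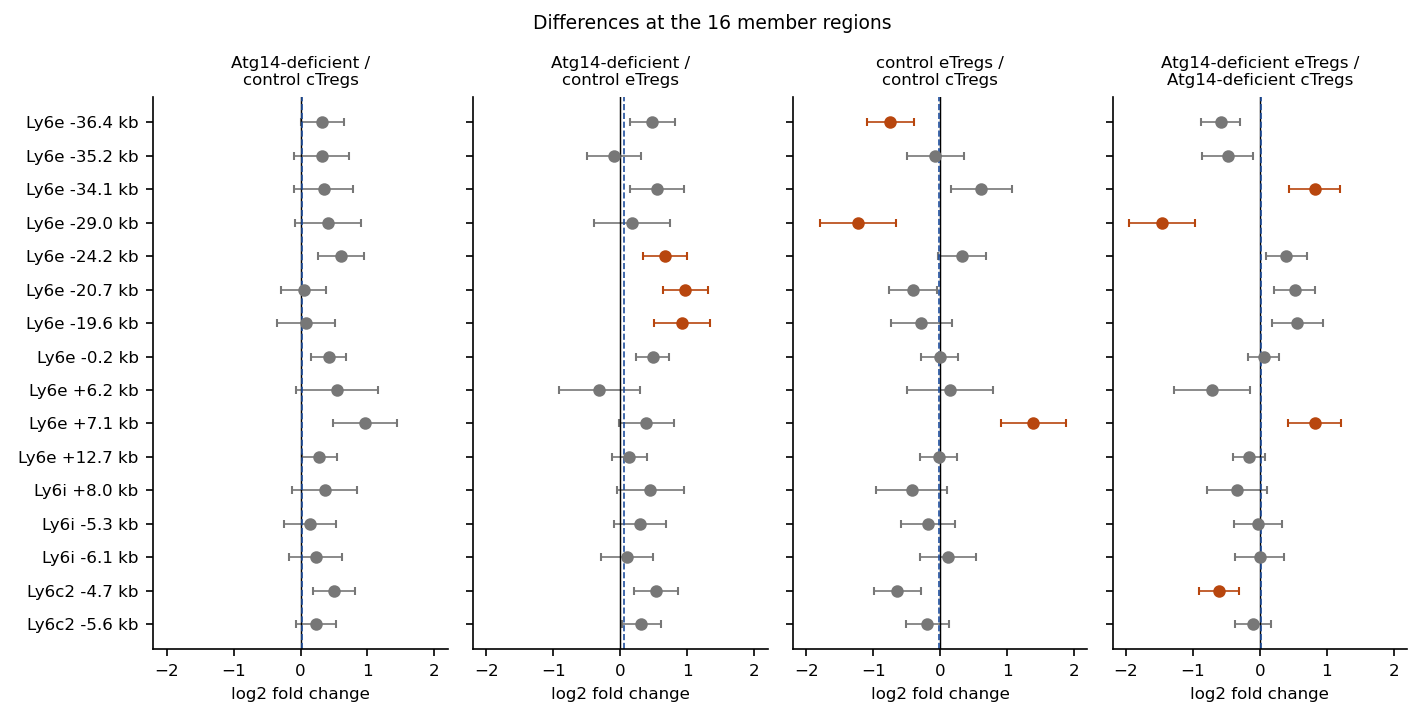
Log2 fold change (horizontal axis) with its standard error from edgeR for each of the 16 regions, named by gene and distance from its start, in 4 comparisons. Orange marks an unadjusted p under 0.05 with a log2 fold change beyond 0.5, and the dashed line is the median of all tested regions. In both genotype comparisons most points lie to the right of 0, while the comparisons of eTregs with cTregs have points on both sides.

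Libraries of a group differed in step across several members. Control cTreg replicate 3 had the smallest total (2242983) and the lowest CPM of its group at 11 of 16 members, with a sum over all members of 103 CPM against 146 CPM in each of the other 2 controls. Replicate 2 of the deficient cells was the lowest of its group at 8 of 16 members in both cTregs and eTregs, with sums of 128 CPM in both, against 177 to 196 and 163 to 188 CPM in the other deficient libraries. Over all members, the sums were 132 ± 24.7 CPM in control and 171 ± 29.6 CPM in deficient cTregs, and 120 ± 18.5 and 162 ± 25.5 CPM in control and deficient eTregs (SD, n = 3 and n = 4).

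Monocyte genes were followed beside these values, since monocytes are rich in Ly6C. Of 6 monocyte genes, 3 had a promoter region (Cd14, Ccr2 and Spi1), and the defining genes Lyz2, Csf1r and Itgam had none. The summed promoter level was 9.36 to 13.7 CPM in control and 10.9 to 23.4 CPM in deficient cTregs, and 10.4 to 23.1 and 13.0 to 27.9 CPM in control and deficient eTregs. Of 14 tested regions of these genes, 3 were higher in deficient eTregs and 1 in deficient cTregs at the unadjusted threshold, with medians of 0.43 and 0.40 on the log2 scale. Over all regions 4.59% were higher in eTregs, and 3.34% passed in either direction in cTregs. The cells were sorted on CD4 and Foxp3-YFP, with a purity that was not tested here, and Ccr2 is also a gene of effector T cells. The part of monocytes in the Ly6 differences was not tested.

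The effect of genotype was not found to differ between the cell states at any member. The interaction had 0 of 16 regions past the unadjusted threshold with edgeR and with DESeq2 (3.05% of all regions with edgeR) and 0 of 61366 regions past the adjusted one. It was largest for the region 20674 bp upstream of Ly6e, at 0.93 on the log2 scale (SE 0.48, unadjusted p = 0.0611), followed by that 6239 bp downstream in the opposite direction (-0.86, SE 0.86) and that 19621 bp upstream (0.84, SE 0.59). Leaving out control cTreg replicate 3 gave 2 members past the unadjusted threshold, and leaving out control eTreg replicate 2, deficient cTreg replicate 1 or deficient eTreg replicate 2 gave 1.

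The comparison of eTregs with cTregs asked how the locus differs between the states. Within controls, 3 of 16 members passed the unadjusted threshold, where 18.2% of all regions did, with 1 higher in eTregs (7.76% of all) and 2 lower (10.4%). Within Atg14-deficient cells 4 passed, where 23.1% of all regions did, with 2 higher (11.4%) and 2 lower (11.8%). None passed after adjustment in the main edgeR fit in either genotype (5.3% and 9.81% of all regions). In deficient cells 1 passed with each of TMM scaling, loess offsets, DESeq2 and the replicate block, and in controls 1 passed with the block. The controls and the deficient cells are different libraries, so the comparisons within each genotype are separate measurements of the state difference. Beside them, the promoter region of the CD8 gene Cd8b1 had 10.3 to 21.4 CPM in the cTreg libraries and 1.54 to 6.83 CPM in the eTreg libraries, and the summed NK cell promoters ranged from 9.26 to 21.6 CPM over all groups. The part of CD8 T cells and NK cells in the state differences was not tested.

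The region 28959 bp upstream of Ly6e (chr15:74925933-74926200), 418 bp from a Gm39556 start, was lower in eTregs in both genotypes. Control cTregs had 5.38, 7.66 and 2.68 CPM and control eTregs 1.95, 3.15 and 1.80 CPM. Deficient cTregs had 12.6, 2.73, 9.99 and 3.53 CPM and deficient eTregs 1.20, 4.18, 2.65 and 2.57 CPM. Most cTreg libraries were above most eTreg libraries, but the groups overlapped in both genotypes. The log2 fold change was -1.23 (SE 0.57, unadjusted p = 0.0391, edgeR adjusted p = 0.220) in controls and -1.46 (SE 0.50, unadjusted p = 0.00613, edgeR adjusted p = 0.0554) in deficient cells. In deficient cells its adjusted p lay on either side of the threshold, at 0.0472 with TMM scaling, 0.0453 with loess offsets and 0.0480 with DESeq2, but at 0.0518 with DESeq2 size factors, 0.0528 with the replicate block, 0.0564 without the filter and 0.0626 when only these groups were fitted. With each library left out its log2 fold change there was between -1.73 and -1.09, and every fit passed the unadjusted threshold. In controls it was between -1.52 and -0.86 and passed in 2 of 6 fits, without cTreg replicate 3 or eTreg replicate 2, and it missed the threshold with DESeq2 (unadjusted p = 0.0549).

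The region 7065 bp downstream of Ly6e (chr15:74962583-74962990) was higher in eTregs. Control eTregs had 8.13, 10.5 and 3.97 CPM, against the 4.89, 1.44 and 1.78 CPM of control cTregs given above. Deficient eTregs had 7.79, 10.9, 9.53 and 10.8 CPM, against 2.52, 5.45, 4.73 and 8.99 CPM in deficient cTregs. In each genotype a single eTreg or cTreg library made the groups overlap, control eTreg replicate 3 and deficient cTreg replicate 4. The log2 fold change was 1.40 (SE 0.49, unadjusted p = 0.00774, edgeR adjusted p = 0.0908) in controls and 0.82 (SE 0.40, unadjusted p = 0.0470, edgeR adjusted p = 0.183) in deficient cells. With a library left out, the value in controls ran from 1.05 to 2.21. The unadjusted call was lost without control cTreg replicate 2 (1.05) or control eTreg replicate 2 (1.06), while without control cTreg replicate 1 or control eTreg replicate 3 the adjusted p fell to 0.0499 and 0.0492. In deficient cells the value ran from 0.61 to 1.18, and the call was kept in 2 of 8 fits, without cTreg replicate 4 or eTreg replicate 1. With the replicate block the adjusted p was 0.0208 in controls and 0.0772 in deficient cells.

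At the far end of the Ly6e regions, the region 36351 bp upstream (chr15:74918450-74918898) had 17.4, 17.2 and 15.2 CPM in control cTregs and 10.7, 14.7 and 5.05 CPM in control eTregs. All 3 eTreg libraries were below all 3 cTreg libraries. In deficient cells it had 25.2, 9.34, 22.3 and 26.3 CPM in cTregs and 16.5, 8.79, 14.8 and 14.9 CPM in eTregs. Replicate 2 was the lowest of both groups. The log2 fold change was -0.74 (SE 0.35, unadjusted p = 0.0441) in controls and -0.59 (SE 0.30, unadjusted p = 0.0591) in deficient cells. With the replicate block the value in controls was -0.77 (SE 0.27, edgeR unadjusted p = 0.00684, adjusted p = 0.0569). In deficient cells the block gave -0.58 (SE 0.23), which passed the unadjusted threshold (edgeR unadjusted p = 0.0159, adjusted p = 0.0751). Without the block, the value in controls ran from -1.13 to -0.38 with a library left out, lowest in size without control eTreg replicate 3. It passed in 2 of 6 fits, without cTreg replicate 3 or eTreg replicate 2. With DESeq2 it missed the threshold (unadjusted p = 0.0559).

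The region 34149 bp upstream (chr15:74920737-74921015) had 3.42, 2.87 and 2.68 CPM in control cTregs, 4.55, 6.30 and 3.24 CPM in control eTregs, 5.04, 3.11, 3.15 and 4.18 CPM in deficient cTregs, and 8.09, 4.18, 8.47 and 6.16 CPM in deficient eTregs. The eTreg libraries were mostly the higher ones in both genotypes. Its log2 fold change in deficient cells was 0.82 (SE 0.39) and passed the unadjusted threshold (edgeR p = 0.0427, exact permutation p = 0.0571). With the replicate block it was 0.80 (SE 0.41) and missed that threshold (edgeR unadjusted p = 0.0556). With a library left out it ran from 0.69 to 0.97 and passed in 3 of 8 fits, without cTreg replicate 1 or eTreg replicate 2 or 4. In controls it stood at 0.62 (SE 0.46). The difference between these effects was not significant (interaction 0.20, SE 0.60).

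By contrast, the Ly6e promoter region showed little difference between the states, with log2 fold changes of -0.01 (SE 0.27) in controls and 0.06 (SE 0.23) in deficient cells. The region 12667 bp downstream stood at -0.02 (SE 0.28) and -0.17 (SE 0.24). Within the same gene's neighbourhood, state differences of opposite sign were therefore measured at the distal regions 28959 bp upstream and 7065 bp downstream.

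The Ly6c2 region 4669 bp upstream (chr15:75116547-75116924) was the most accessible member. Control cTregs had 21.5, 18.2 and 15.2 CPM and control eTregs 11.7, 12.3 and 11.5 CPM. Every control cTreg library was above every control eTreg library. It was 1 of 2 members whose control groups did not overlap between states, with the region 36351 bp upstream of Ly6e, where 26% of all regions did not overlap. In deficient cells no member did so (15.5% of all regions). Deficient cTregs had 35.3, 12.1, 36.8 and 19.9 CPM and deficient eTregs 18.6, 7.53, 19.1 and 22.1 CPM. Replicate 2 was again the lowest of both deficient groups. The log2 fold change from cTregs to eTregs was -0.64 (SE 0.35, unadjusted p = 0.0774) in controls, where the replicate block gave -0.61 (SE 0.25, unadjusted p = 0.0176, edgeR adjusted p = 0.106), past the unadjusted threshold. It was -0.61 (SE 0.29, unadjusted p = 0.0469, edgeR adjusted p = 0.183) in deficient cells. Same-numbered libraries of both states deviated together in the deficient cells, and with the replicate block the value there was -0.60 with an edgeR adjusted p of 0.0419. Without the block, leaving out a library gave -0.84 to -0.38, smallest in size without deficient cTreg replicate 3, and 3 of 8 fits passed the unadjusted threshold, those without cTreg replicate 2 or 4 or eTreg replicate 4. When only these groups were fitted, its unadjusted p was 0.0756. Between genotypes it stood at 0.53 (SE 0.33, unadjusted p = 0.119) in eTregs and 0.50 (SE 0.32, unadjusted p = 0.125) in cTregs.

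The other Ly6c2 region, 5630 bp upstream (chr15:75117528-75117865), ranged from 6.13 to 16.7 CPM over all libraries, and its log2 fold changes in the 4 comparisons lay between -0.19 and 0.32. It had the lowest share of unique 50-base strings among the members (67.8%, given above), and the part of read mapping in its counts was not tested.

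The 3 Ly6i regions passed no threshold. The region 5332 bp upstream (chr15:74988544-74988989), the highest of them, had 7.82, 8.62 and 6.69 CPM in control cTregs, 12.6, 8.18, 3.15 and 10.9 CPM in deficient cTregs, 4.55, 7.61 and 8.11 CPM in control eTregs, and 8.39, 6.28, 6.35 and 12.3 CPM in deficient eTregs. All 4 groups overlapped. This region lay 52 bp from a start of the long non-coding RNA gene Gm28068 and is also the Ly6i region nearest to the start. The region with the ISRE and STAT matches, 6092 bp upstream of Ly6i, ranged from 2.68 to 7.18 CPM, with log2 fold changes of 0.10 and 0.23 between genotypes and 0.12 and -0.00 between states, all within 1 SE of 0. The third, 8001 bp downstream, ranged from 1.80 to 7.53 CPM.

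**Figure D3:**
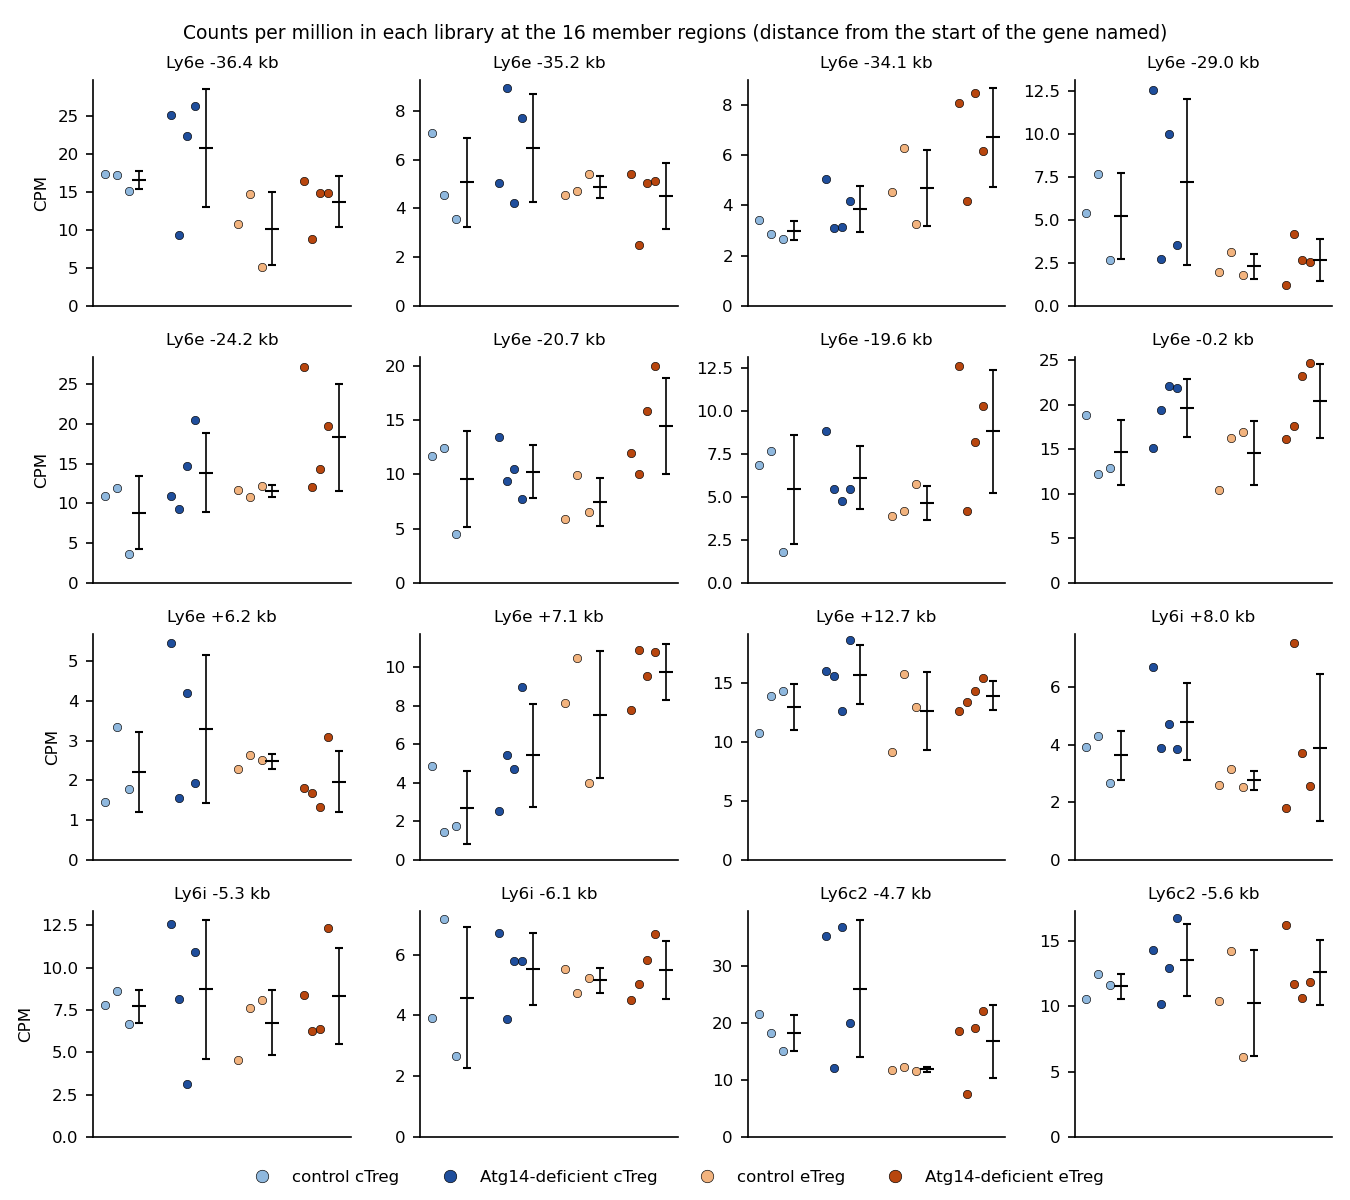
CPM of each library (points, vertical axis) at the 16 member regions, 1 panel each, by group (3 control and 4 Atg14-deficient libraries per state), with mean and SD at the right of each group. The deficient eTregs are separate from the control eTregs only in the panel of the region 20674 bp upstream of Ly6e. Replicate 2 is the lowest deficient library of both states at the regions 36351, 34149 and 24195 bp upstream of Ly6e and 4669 bp upstream of Ly6c2.

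Averaging the state difference over both genotypes, an analysis added after the data were seen, gave smaller errors. With it, 4 members passed after adjustment, where 18.9% of all regions did. These were the regions 28959 bp upstream of Ly6e (log2 fold change -1.35, SE 0.38, edgeR adjusted p = 0.0110), 7065 bp downstream of it (1.11, SE 0.31, adjusted p = 0.0118), 36351 bp upstream of it (-0.66, SE 0.23, adjusted p = 0.0387) and 4669 bp upstream of Ly6c2 (-0.62, SE 0.23, adjusted p = 0.0495). Averaging the genotype difference over both states gave 4 members past the unadjusted threshold (5.85% of all regions) and 0 past the adjusted one (0.0684% of all). They were the regions 24195 and 20674 bp upstream and 7065 bp downstream of Ly6e and that 4669 bp upstream of Ly6c2, all higher in Atg14-deficient cells. This fit takes the cTreg and eTreg libraries as independent, so its errors for the genotype difference are too small where both came from 1 mouse.

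**Figure D4:**
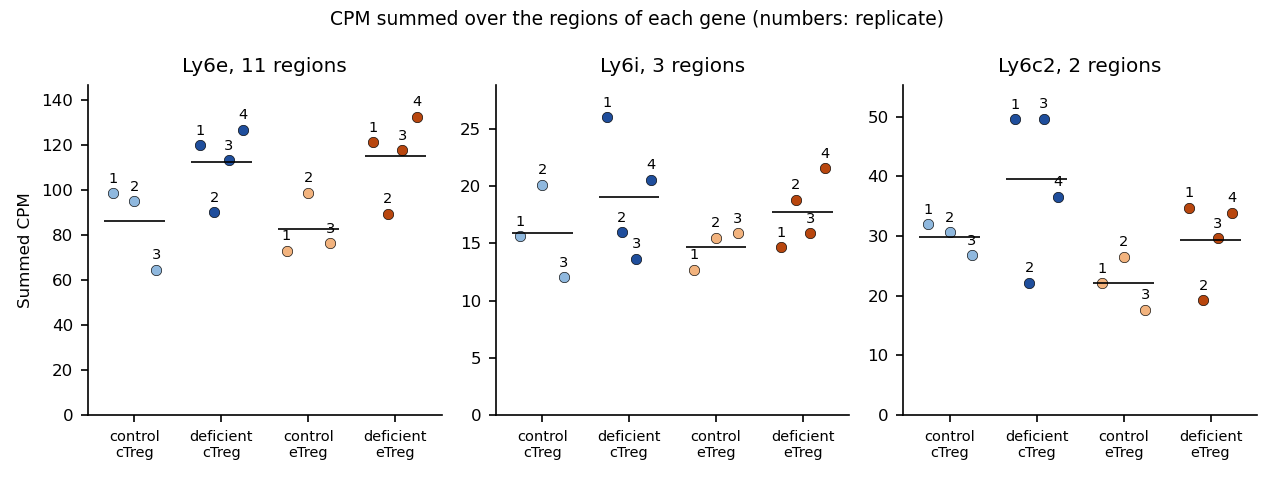
CPM summed over the regions of Ly6e (11), Ly6i (3) and Ly6c2 (2) in each library (vertical axis), with the replicate number beside each point and the group mean as a line. The mean of the deficient group is above that of the control group of the same state in all 3 panels, and the groups overlap in each of them.

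Genes next to the members and their relatives were read from fixed lists. Of 25 neighbouring genes on chromosome 15, such as Ly6d, Lynx1 and Top1mt, 13 had tested regions (26 in all). In eTregs 1 of these regions, at Ly6d, was higher in deficient cells at the unadjusted threshold, and in cTregs none changed. Their median log2 fold changes between genotypes were 0.12 in eTregs and -0.00 in cTregs. The Ly6 genes among these neighbours (Ly6d, Ly6m, Ly6g, Ly6g2 and Ly6h, looked at separately after the data were seen) had 8 of these regions. In eTregs 7 of the 8 had a log2 fold change above 0, with a range of -0.09 to 1.16 and a median of 0.65, and in cTregs 4 did, with a range of -0.59 to 1.31 and a median of 0.12. No test compared these regions with the members. Between states, a region of Zfp41 was higher in eTregs after adjustment in both genotypes, and in deficient cells a region at the Top1mt start was higher and 1 of Ly6m was lower.

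Of 13 family members elsewhere in the genome, 5 had tested regions (23 in all). None of these passed the adjusted threshold between genotypes. Between states, 5 were lower in eTregs after adjustment in controls and 6 in deficient cells (5.3% and 9.81% of all regions passed in either direction), all at Plaur, the urokinase receptor, or Lypd6b.

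Interferon-response genes were followed because several Ly6 genes respond to the same signals. Of 24 such genes, 21 had tested regions (76 in all), and none passed the adjusted threshold between genotypes. At the unadjusted threshold 4 regions were higher in deficient eTregs, at Isg15, Ifih1 and Irf1, and in cTregs 2 were higher and 1 lower. These counts are near the shares over all regions (4.59% higher in eTregs and 3.34% in either direction in cTregs). The medians of 0.17 and 0.09 on the log2 scale stood between those of all regions and those of the Ly6 members.

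Effector genes were followed in the comparison of states. Of 203 regions at 12 such genes, among them Icos, Prdm1 and Batf, 11 were higher and 2 lower in control eTregs after adjustment, and 23 were higher and 8 lower in deficient eTregs, where 5.3% and 9.81% of all regions passed in either direction.

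For each member gene with regions, the promoter regions of other genes that varied most like its most accessible region over the 14 libraries were identified among 11201 genes. For Ly6e they were Spaca1 (Pearson r = 0.88), Ccr2 (0.84) and Fads1 (0.82). For Ly6c2 they were Susd3 and Prpf6 (0.89 and 0.89), and for Ly6i Cacng3, Cmtm8 and Itga7 (0.87, 0.82 and 0.78). The libraries share depth and cell state, so these values describe likeness only.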

How the data were processed

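Bulk ATAC-seq was done on 14 libraries of sorted splenic Tregs in 4 groups, assigned from the labels. As the methods and the submitters' processing notes give it, the authors trimmed reads, aligned them, marked duplicates, called peaks, merged them and counted nucleosome-free reads per region. The notes name cutadapt 1.9, Picard 1.65 and MACS2 2.1.0.20150603. The methods name Trimmomatic for the trimming and a later version of Picard. The deposited values are raw counts without normalization. The notes name mm10 (GRCm38) and the methods mm9. All 67207 regions on assembled chromosomes lay within GRCm38, and 26855 of 56164 protein-coding starts had a region within 200 bp, while only 2223 had one when the regions were moved by 20000 bp, so GRCm38 was used. No per-sample column was left unmapped.

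Nearest starts came from RefSeq mRNA annotation of GRCm38.p6. Counts were tested with edgeR 4.0.16 (R 4.3.3), with total-count scaling, its filter on low counts and 1 quasi-likelihood model over all 14 libraries, tested on simulated data before use. Adjusted p-values are Benjamini-Hochberg values over 61366 regions. Exact permutation tests used log2 CPM with a prior count of 2. Sequence and figures were made in Python 3.11.15. DESeq2 1.42.0, other scalings, filters, library exclusions and a replicate block were the alternatives. Same-numbered eTreg and cTreg libraries of Atg14-deficient cells had deviations that correlated at 0.12 to 0.24 in all 4 pairs. The main fit did not pair them, and the replicate block did so as an alternative. The study gives 3 control and 4 Atg14-deficient chimeras as the source of both cell states, so replicates of a group are mice, but the labels do not say that a number marks the same mouse in both states.

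Named with values in every library were each gene's most accessible region and the region nearest its start, and any member past the unadjusted threshold. Gene lists covered neighbours, relatives, interferon response, effector and cell type genes. The members and lists were chosen with earlier results of these data known. A few items are not reported here.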

Additional observations from a re-analysis of the deposited data

Results flagged for a closer look

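Among the 32 groups of 4 Atg14-deficient libraries at the 16 member regions, 1 had a library far from the rest by Dixon's criterion. At the region 35244 bp upstream of Ly6e, Atg14-deficient eTreg replicate 2 had 2.51 CPM, and the nearest of the other 3 libraries had 5.03 CPM. Chance gives such a library in about 1 of 20 groups.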

How the results depend on the processing

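The member regions past the unadjusted threshold kept their direction under every alternative run. Others did not: of the 16 members above 0 between genotypes in cTregs, 15 were with the replicate block, and 13 to 16 with a library left out. In eTregs, the 3 members past the unadjusted threshold between genotypes became 1 with the replicate block, 1 with at least 10 counts in every library (which left 7 members) and 0 by the nearest start of any annotated gene (4 members), and 1 to 5 with a library left out. In cTregs the count of 0 became 4 when the effect was averaged over both states, and was 0 to 2 with a library left out. The interaction count of 0 became 1 with at least 10 counts, and was 0 to 2 with a library left out. Between states in controls, the 3 members became 4 with the block, 1 with DESeq2, 1 with at least 10 counts, 0 by any annotated start and 5 averaged over genotypes, and were 0 to 3 with a library left out. In deficient cells the 4 members became 1 with at least 10 counts and 1 by any annotated start, and were 1 to 3 with a library left out. Past the adjusted threshold, the count of 0 became 1 in controls with the replicate block and 1 in deficient cells with TMM, loess offsets, DESeq2 or the block, 4 in both averaged over genotypes, and 0 or 1 with a library left out. Same-numbered libraries deviated together in 0 of 6 genotype pairs (correlations over 0.1) and 6 of 7 state pairs, and all 7 of the latter correlated best with their own number. All 4 state pairs of deficient libraries passed this check, as did 2 of the 3 control pairs. The main fit used no block in either genotype, so its state p-values are those of an unpaired model. The replicate block stands beside it as an alternative. No scaling moved the median of all regions by over 0.1 on the log2 scale. Why these counts moved was not tested beyond the fewer members that the filter and the start rule left. Low counts at the members (4 to 140) limit every value.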
